A study of Mus musculus with 12 samples.

Results

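The genes described here are 47 genes of DNA replication and mitosis, out of the 24453 genes in the gene count table. They were taken by gene symbol from a list written for these data, split into 27 S phase genes and 20 mitotic genes, and the 4 cell lines of the study were kept separate. All 47 were found in the table, and all 47 passed the filter on low counts (edgeR's filterByExpr) that left 14026 genes for testing.

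A dividing cell licenses its replication origins before S phase, when the origin recognition complex, CDC6 and CDT1 load the MCM helicase, a ring built from the products of *Mcm2* to *Mcm7*. CDC45 and the GINS complex then activate the helicase, DNA polymerases copy the strands on the PCNA clamp, and E2F transcription factors, released from the RB proteins, turn on most of these genes. Genes of mitosis are turned on later in the cycle by MYBL2 and FOXM1, and their products, led by the kinase CDK1 with B-type cyclins, condense the chromosomes, build the spindle and split the sister chromatids.

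The RNA came from C57BL6/J mouse embryonic fibroblasts (MEFs) immortalized with SV40 large T antigen, a viral protein that binds the RB proteins and p53. TM6 MEFs, the parent of the other lines, carry floxed *Pnpt1* alleles ("neo-flox" in the labels), the gene for the mitochondrial RNA exonuclease PNPase. The rho0 MEFs are TM6 MEFs without mtDNA, 1 colony isolated after 3 weeks in ditercalinium dichloride dihydrochloride at 750 ng/mL, and they still carry the floxed alleles. PKO-1 and PKO-6 are 2 PNPase knockout clones each raised from 1 cell colony of TM6 infected with adenoviral Cre recombinase, and by the study's account they also lost their mtDNA. Uridine at 50 µg/mL was in the medium of every line. Each line is represented by 3 cultures, so a p-value here measures the spread between cultures of 1 line or clone, and what loss of PNPase does cannot be told apart from what else sets a clone apart. The study measured growth, counted cells and profiled the cell cycle of these lines. For a pathway list of cell cycle genes, it reported that changes against TM6 correlated strongly and positively between PKO and rho0. There the PKO clones were taken as 1 group. Here the clones are kept apart, and the question is how mRNAs of the replication and the mitotic machinery stood in each line against TM6.

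Expected counts per library summed to between 47164860 and 67991378. *Pnpt1* itself averaged 3131 ± 262 normalized counts (SD, n = 3) in TM6, 5271 ± 230 in rho0, 1240 ± 44.3 in PKO-1 and 1944 ± 250 in PKO-6, where a normalized count is a count divided by the library's TMM-scaled size relative to the mean library. Cre removes the floxed part of a single exon, so reads of the other exons were still counted. The gene was called lower in both clones and higher in rho0. Fibroblast markers carried the libraries, with between 7 and 9 of 10 markers above 100 normalized counts in each line and a summed level of 355750 to 658469, against 20.3 to 842 for the summed epithelial, endothelial or blood cell markers. The fibroblast marker *Thy1* was near 0, at a mean of 2.81 normalized counts in TM6 and lower in the other lines. The T cell marker *Cd3e*, the macrophage marker *Adgre1* and the endothelial marker *Emcn* were at 0 in every line. Others were present: the epithelial marker *Krt18* averaged 242 in TM6, 430 in rho0 and 816 in PKO-1, and less in PKO-6. The blood cell marker *Cd68* averaged 91.6 to 186 across the lines. In PKO-6 the endothelial marker *Kdr* averaged 142 and the epithelial marker *Epcam* 88.02, and both were lower in the other lines. In rho0 the fibroblast markers *Pdgfra* (81.6) and *Dcn* (8.2) lay below *Krt18* and *Cd68*. By a chi-square comparison of counts, rho0 replicate 1 (mean per gene 101 and 74.2 against the other rho0 libraries, which differed by 5.14) and PKO-6 replicate 3 (87.4 and 158, against 28.9) stood apart from their own line. Results that rest on them are given with and without them.

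The promoters of S phase and mitotic genes carry different short sequences. RefSeq promoter windows from 250 bases before to 50 after the start site (GRCm38.p6) were matched for 37 of the 47 genes, and their letters were searched on both strands for an E2F motif (TTTCCCGC, TTTCGCGC, TTTGCCGC or TTTGGCGC), for the CHR element of late cell cycle promoters (TTTGAA or TTCGAA) and for CCAAT. An E2F motif was found in 13 of 21 S phase promoters (61.9%), in 1 of 16 mitotic promoters (6.25%) and in 2.60% of the 27025 promoters in the table. The CHR element together with CCAAT was found in 12 of 16 mitotic promoters (75.0%), in 6 of 21 S phase promoters (28.6%) and in 9.65% of all promoters; the CHR element alone was in 21.7% of all promoters and CCAAT in 41.1%. A match is a description of the letters and not a bound site. Stretches of the windows of 6 genes the results turn on follow, in the direction of transcription, with capitals for the E2F matches in the S phase genes and for the E2F, CHR and CCAAT matches in the mitotic genes, on either strand. *Mcm5* (chr8:75109336-75109387, plus strand) and *Cdk2* (chr10:128705164-128705211, minus strand) fell in all 3 lines, and *Mcm6* (chr1:128359725-128359835, minus strand) carries the same motif and was called in none. *Ccnb2* (chr9:70421555-70421741, minus strand) fell in all 3 lines, *Mki67* (chr7:135716452-135716587, minus strand) in rho0 and PKO-6, and *Cdk1* (chr10:69352913-69353140, minus strand), the mitotic promoter with an E2F motif, likewise in rho0 and PKO-6. The E2F matches of *Mcm5* overlap each other, as do the first pair in *Mcm6*.
Mcm5: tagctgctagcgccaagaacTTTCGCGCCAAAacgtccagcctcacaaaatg
Cdk2: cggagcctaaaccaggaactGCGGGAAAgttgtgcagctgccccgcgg
Mcm6: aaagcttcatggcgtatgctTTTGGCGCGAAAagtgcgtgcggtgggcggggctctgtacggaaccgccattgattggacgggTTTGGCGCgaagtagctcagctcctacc
Ccnb2: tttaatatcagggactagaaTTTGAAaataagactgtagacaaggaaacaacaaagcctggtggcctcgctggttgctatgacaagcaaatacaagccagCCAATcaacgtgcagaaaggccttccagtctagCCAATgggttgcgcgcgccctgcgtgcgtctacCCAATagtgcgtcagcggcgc
Mki67: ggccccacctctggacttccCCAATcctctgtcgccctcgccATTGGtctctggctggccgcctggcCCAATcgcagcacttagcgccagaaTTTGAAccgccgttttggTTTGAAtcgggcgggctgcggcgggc
Cdk1: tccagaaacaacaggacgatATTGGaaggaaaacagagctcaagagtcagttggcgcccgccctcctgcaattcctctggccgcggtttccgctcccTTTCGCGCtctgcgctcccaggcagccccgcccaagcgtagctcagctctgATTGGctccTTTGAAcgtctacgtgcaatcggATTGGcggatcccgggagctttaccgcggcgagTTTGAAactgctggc

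Members of both groups fell in rho0 and in PKO-6, whereas in PKO-1 6 S phase genes and only *Ccnb2* and *Mybl2* of the mitotic genes were called lower. A gene was called where edgeR's quasi-likelihood test gave a Benjamini-Hochberg adjusted p below 0.01 over all tested genes and the absolute log2 fold change was above 0.5. In rho0 against TM6, 12 of 20 mitotic genes fell and none rose, with a median log2 fold change of -0.57, while 8 of 27 S phase genes fell and 2 rose, with a median of -0.29. Over all tested genes 21.4% were called lower and 20.7% higher in that comparison, with a median of 0.02. In PKO-6 against TM6, 9 mitotic genes fell (median -0.46) and 11 S phase genes fell (median -0.42), none rose, and over all genes 19.4% were called lower and 21.9% higher, with a median of 0.01. In PKO-1 against TM6, 2 mitotic genes fell (median 0.09) and 6 S phase genes fell (median -0.24), none rose, and over all genes 17.9% were called lower and 16.4% higher, with a median of 0.00086. The share of S phase genes called lower in PKO-1 is thus close to that of all genes, and the share of mitotic genes called lower is under it.

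All 20 mitotic genes had a negative log2 fold change in rho0, all 20 did in PKO-6, and 9 of 20 did in PKO-1. Of the 27 S phase genes, 23 were negative in rho0, 23 in PKO-6 and 20 in PKO-1. Over all 14026 tested genes, 6852 were negative in rho0, 6887 in PKO-6 and 6995 in PKO-1. The mitotic count in PKO-1 was thus near the share of all genes. These 3 comparisons share the TM6 libraries, so their values are set side by side and not counted as separate evidence. In bulk RNA, fewer cells in a phase of the cycle and less of an mRNA per cell cannot be told apart. Without rho0 replicate 1 the calls in rho0 were 8 S phase genes lower, 1 higher and 13 mitotic genes lower. Without PKO-6 replicate 3 the calls in PKO-6 were 10 S phase and 9 mitotic genes lower.

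**Figure D1:**
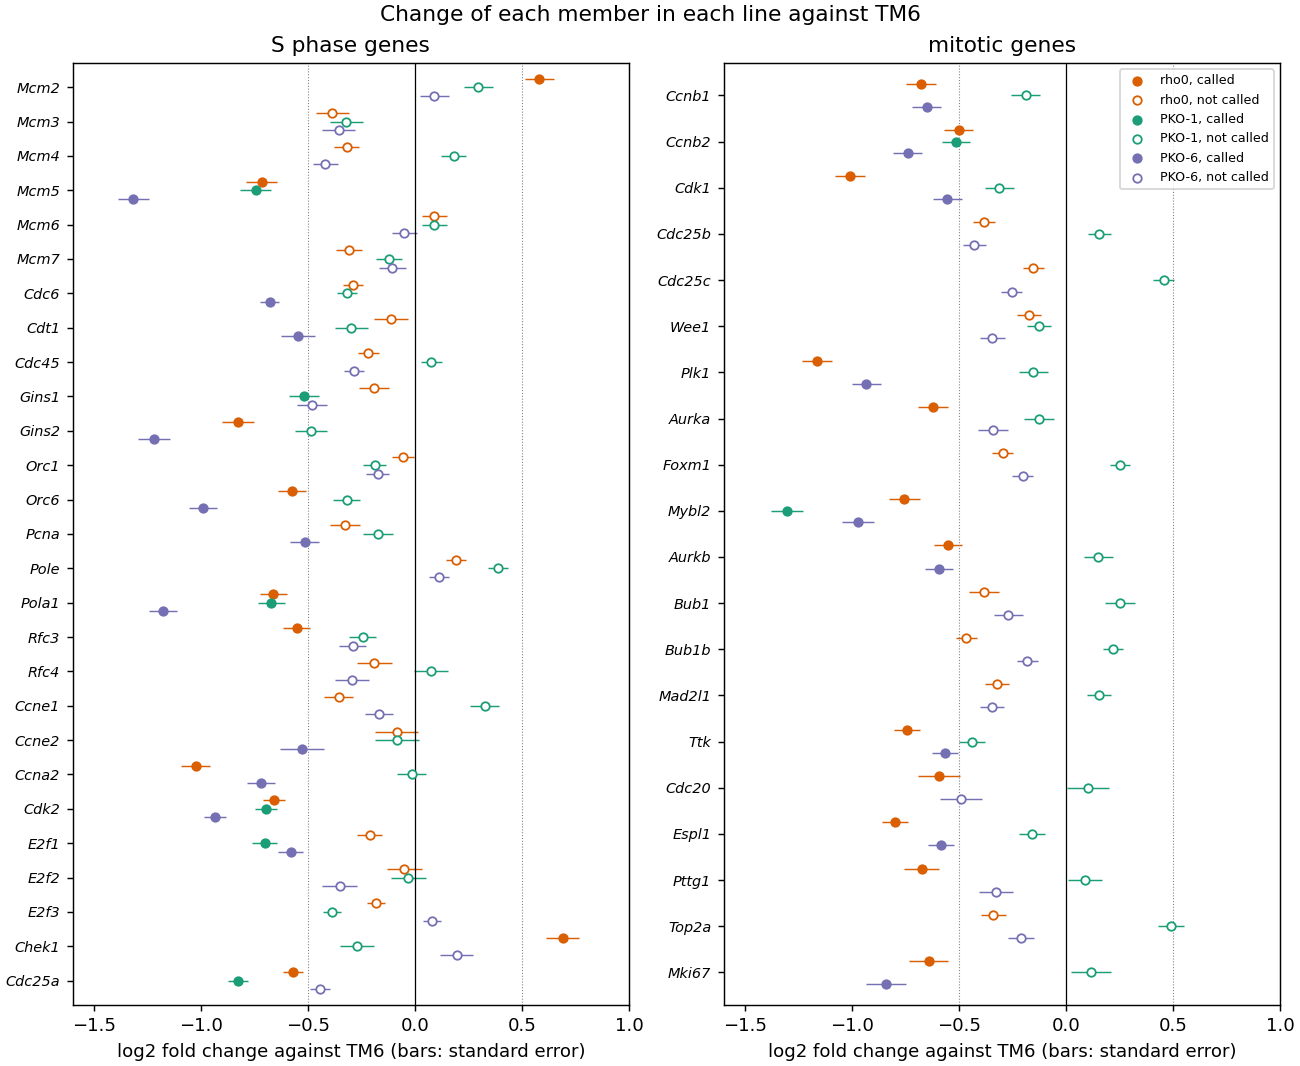
The log2 fold change of each of the 47 genes against TM6 (horizontal axis) in rho0 (orange), PKO-1 (green) and PKO-6 (purple), with bars for the standard error, filled points for called genes and dotted lines at the fold change threshold of 0.5 either way; S phase genes are on the left and mitotic genes on the right. In the mitotic panel every orange and purple point lies left of 0, while the green points scatter around 0 apart from *Mybl2* at -1.31 and *Ccnb2* at -0.52.

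The contrast between the groups was also taken within each library, as the median of the 20 mitotic genes minus the median of the 27 S phase genes, each gene relative to its TM6 mean on the log2 scale. This difference was -0.23, -0.27 and -0.28 in the rho0 libraries, 0.17, 0.38 and 0.42 in the PKO-1 libraries, and -0.05, 0.05 and -0.08 in the PKO-6 libraries. In TM6 it was between -0.0023 and 0.013, near 0 because each gene was taken relative to its TM6 mean. The SD between replicates, pooled over the lines with TM6 among them, was 0.075. The PKO-1 libraries spread more widely than those of rho0 or PKO-6, so the pooled SD understates their spread. Mitotic mRNAs thus lay below S phase mRNAs in all 3 rho0 libraries, above them in all 3 PKO-1 libraries, and within about 1 SD of them in PKO-6. With each chromosome's median taken out of every library, the difference between the median log2 fold changes against TM6 was 0.13 in PKO-1, against 0.34 before, and -0.14 in PKO-6, against -0.04 before. The medians have no test of their own, because the genes were chosen as groups and share regulators.

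**Figure D2:**
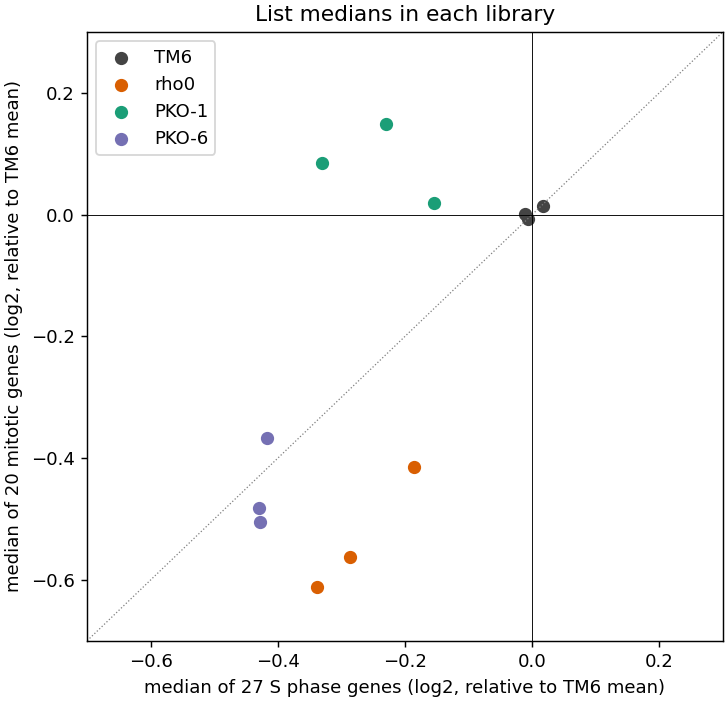
Each point is 1 of the 12 libraries, placed by the median of the 27 S phase genes (horizontal axis) and of the 20 mitotic genes (vertical axis), both in log2 units relative to the TM6 mean; the dotted diagonal marks equal medians. PKO-1 libraries lie above the diagonal near a mitotic median of 0, rho0 libraries below it, and PKO-6 libraries along it at S phase medians of -0.43 to -0.42.

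Taken gene by gene, 5 members were called lower in all 3 lines: *Mcm5*, *Pola1* and *Cdk2* among the S phase genes, and *Ccnb2* and *Mybl2* among the mitotic genes. A further 10 were lower in rho0 and PKO-6 and not called in PKO-1, and 7 of these were mitotic (*Ccnb1*, *Cdk1*, *Plk1*, *Aurkb*, *Ttk*, *Espl1* and *Mki67*), beside *Gins2*, *Orc6* and *Ccna2*. Of the others, 4 were called lower in rho0 alone (*Rfc3*, *Aurka*, *Cdc20* and *Pttg1*), 4 in PKO-6 alone (*Pcna*, *Cdc6*, *Cdt1* and *Ccne2*), 1 in PKO-1 alone (*Gins1*), 1 in both clones (*E2f1*) and 1 in rho0 and PKO-1 (*Cdc25a*). *Mcm2* and *Chek1* were higher in rho0, and 19 members were called in no line. These patterns were not counted over all tested genes, so it is not known whether the numbers are unusual. With chromosome medians removed, *Mcm5* and *Mybl2* kept their calls in all 3 lines. *Pola1* was then called in none of them, *Cdk2* not in rho0 (-0.48) and *Ccnb2* not in PKO-1 (-0.13).

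Among the genes that license origins and unwind DNA, *Mcm5* moved apart from its partners in the helicase ring. *Mcm5* gave 13175, 12912 and 12210 normalized counts in the TM6 libraries, 8675, 7291 and 7321 in rho0, 7638, 7805 and 7407 in PKO-1, and 5231, 5384 and 4769 in PKO-6. No library of another line reached the TM6 range, and PKO-6 lay below the other lines without overlap. The log2 fold change was -0.72 ± 0.071 (SE) in rho0 (edgeR adjusted p = 6.63e-07), -0.75 ± 0.071 in PKO-1 (adjusted p = 6.01e-07) and -1.32 ± 0.071 in PKO-6 (adjusted p = 1.3e-09). *Mcm6* averaged 12949 ± 293 normalized counts in TM6 and between 12502 and 13791 in the other lines, and was not called (log2 fold changes of 0.09, 0.09 and -0.05). *Mcm2* gave 18369, 18684 and 18274 normalized counts in TM6 and 30345, 25587 and 26830 in rho0, a log2 fold change of 0.58 ± 0.067 (edgeR adjusted p = 3.49e-06). The *Mcm2* levels of TM6 and rho0 do not overlap, but the call is lost without rho0 replicate 1, the highest library, and with chromosome medians removed (0.46). *Mcm2* was at 0.30 in PKO-1 and 0.09 in PKO-6 and was not called there. *Mcm3* stood at -0.39, -0.32 and -0.36 in rho0, PKO-1 and PKO-6, *Mcm4* at -0.32, 0.18 and -0.42, and *Mcm7* at -0.31, -0.12 and -0.11, all under the fold change threshold.

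Levels of different genes were compared in TPM, a share of all transcripts that accounts for length. In TM6 the 6 helicase genes ranged from 119 ± 4.57 TPM (*Mcm5*) to 209 ± 1.33 TPM (*Mcm7*), all SD with n = 3. In PKO-6 *Mcm5* was at 45.9 ± 0.0874 TPM while the other 5 ranged from 106 ± 3.19 (*Mcm3*) to 187 ± 4.47 TPM (*Mcm7*). *Mcm2* rose from 175 ± 0.721 TPM in TM6 to 258 ± 4.71 TPM in rho0. The proteins of these genes occur once each in the helicase ring, and *Mcm5* was the lowest of their mRNAs in every line.

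**Figure D3:**
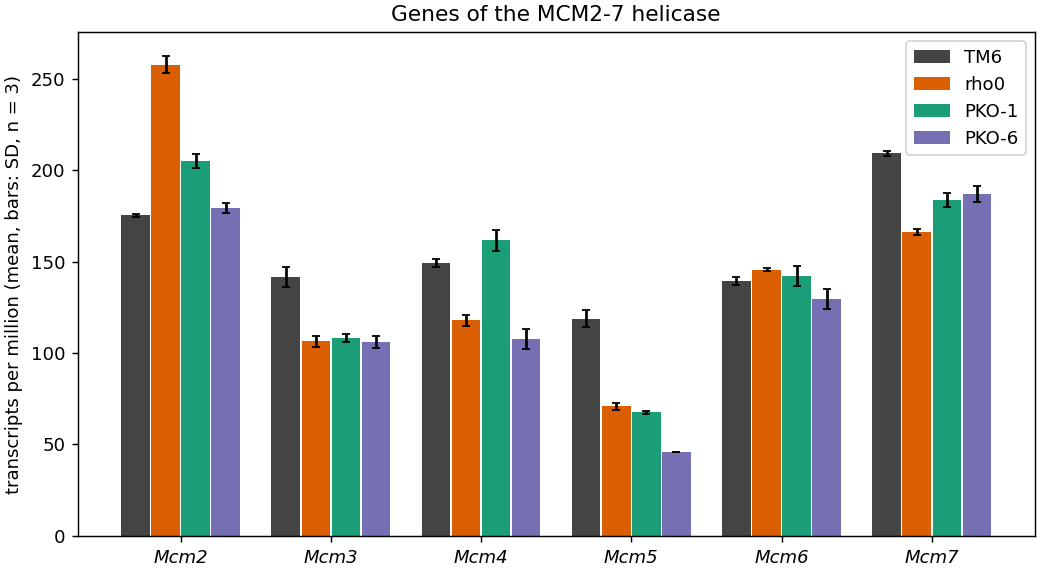
Bars give the mean level of the 6 helicase genes in TPM, with error bars for the SD of 3 replicates, in TM6 (grey), rho0 (orange), PKO-1 (green) and PKO-6 (purple). *Mcm5* is the lowest of the 6 in every line and falls from 119 in TM6 to 45.9 in PKO-6, while *Mcm2* reaches 258 in rho0.

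The other licensing and helicase genes fell mainly in PKO-6. *Gins2*, a subunit of the GINS complex, gave 2462, 2367 and 2290 normalized counts in TM6, 1485, 1239 and 1287 in rho0, 1708, 1737 and 1636 in PKO-1, and 1030, 1098 and 928 in PKO-6. The 4 lines did not overlap for *Gins2*, with log2 fold changes of -0.83 ± 0.074 in rho0 (edgeR adjusted p = 2.66e-07) and -1.22 ± 0.075 in PKO-6 (adjusted p = 4.65e-09), and with -0.49 in PKO-1, just under the threshold. Of the exon bases of *Gins2*, 11.4% are shared with *Gse1* on the other strand, and the sources used here do not state whether counting used the strand. *Gins1*, its partner, was called only in PKO-1 (-0.52 ± 0.070, edgeR adjusted p = 1.88e-05) and stood at -0.48 in PKO-6; the call is lost without TM6 replicate 2 or PKO-1 replicate 3. *Orc6*, a subunit of the origin recognition complex, was at -0.57 in rho0 and -0.99 in PKO-6, both called, and at -0.32 in PKO-1, whereas *Orc1*, its largest subunit, stayed between -0.19 and -0.06. The loading factors *Cdc6* (-0.68) and *Cdt1* (-0.55) were called in PKO-6 alone, *Cdt1* not without PKO-6 replicate 3, and *Cdc45* was called in none. With chromosome medians removed *Cdt1* in PKO-6 (-0.11), *Orc6* in rho0 (-0.38) and *Gins1* in PKO-1 (-0.44) were not called. Of these 13 genes in all, 3 were lower and 1 higher in rho0, 2 lower in PKO-1 and 5 lower in PKO-6, against 21.4%, 17.9% and 19.4% of all genes called lower, so the counts in rho0 and PKO-1 were near the share of all genes.

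Among the polymerases and the clamp, *Pola1*, the catalytic subunit of the polymerase that starts each new strand, fell in all 3 lines. *Pola1* gave 6103, 6524 and 6720 normalized counts in TM6, 4008, 4079 and 4136 in rho0, 4287, 4083 and 3775 in PKO-1, and 2858, 2638 and 3058 in PKO-6. TM6 lay above and PKO-6 below the other lines, while rho0 and PKO-1 overlapped. Its log2 fold change was -0.66 ± 0.063 in rho0 (edgeR adjusted p = 4.92e-07), -0.67 ± 0.063 in PKO-1 (adjusted p = 5.63e-07) and -1.18 ± 0.064 in PKO-6 (adjusted p = 1.3e-09). *Pola1* lies on chromosome X, where the 459 tested genes had a median log2 fold change of -0.75 in rho0, -0.74 in PKO-1 and -0.87 in PKO-6. With each chromosome's median taken out of every library, *Pola1* was at 0.11 in rho0 (edgeR adjusted p = 0.0747), at 0.055 in PKO-1 (adjusted p = 0.387) and at -0.29 in PKO-6 (adjusted p = 0.000231), and it was called in none of them.

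*Pole*, the leading strand polymerase, was not called in any line, at 0.19, 0.39 and 0.11 in rho0, PKO-1 and PKO-6. *Pcna*, the clamp that holds polymerases on DNA, gave 13404, 14860 and 13970 normalized counts in TM6 and 9595, 10173 and 9758 in PKO-6, a log2 fold change of -0.52 ± 0.070 (edgeR adjusted p = 1.48e-05). The *Pcna* call is lost without TM6 replicate 2. In rho0 *Pcna* stood at -0.33 and in PKO-1 at -0.17. The clamp loader genes were at -0.55 in rho0, which was called, and -0.24 and -0.29 in the clones for *Rfc3*, and at -0.19, 0.07 and -0.29 for *Rfc4*, none called (13.2% of *Rfc4* exon bases overlap *Eif4a2* on the other strand).

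Among the 9 genes of S phase entry and its checkpoint, *Ccna2*, the cyclin of S phase and G2, fell in rho0 and PKO-6 and not in PKO-1. *Ccna2* gave 17166, 19639 and 20163 normalized counts in TM6, 9645, 8877 and 9476 in rho0, 19317, 18975 and 18047 in PKO-1, and 10889, 11703 and 11987 in PKO-6. PKO-1 overlapped TM6, and rho0 and PKO-6 lay below both. The log2 fold change was -1.02 ± 0.067 in rho0 (edgeR adjusted p = 1.11e-08), -0.02 ± 0.067 in PKO-1 (adjusted p = 0.848) and -0.72 ± 0.067 in PKO-6 (adjusted p = 3.59e-07). *Exosc9* on the other strand shares 13.4% of the exon bases of *Ccna2*.

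*Cdk2*, the kinase that pairs with cyclins E and A, gave 5850, 5400 and 5777 normalized counts in TM6, 3585, 3612 and 3598 in rho0, 3515, 3311 and 3668 in PKO-1, and 3090, 2914 and 2911 in PKO-6. Every library of the other lines lay below TM6, with log2 fold changes of -0.66, -0.70 and -0.93 (edgeR adjusted p = 6.41e-08, 4.81e-08 and 1.58e-09). The rho0 value was -0.48 and not called with chromosome medians removed. The fall came with a change in the transcripts. RefSeq lists a *Cdk2* transcript of 7 exons and one of 8, which differ by an exon of 144 bases (chr10:128699976-128700119, mm10, minus strand). The 8-exon form held 27.1%, 32.1% and 25.4% of the estimated *Cdk2* counts in TM6, 62.6%, 60.2% and 61.9% in rho0, 52.2%, 56.9% and 53.1% in PKO-1, and 47.1%, 51.9% and 48.0% in PKO-6. No line overlapped TM6 in this share. In normalized counts the 7-exon form averaged 4080 ± 359 in TM6 and 1384 ± 48.6, 1609 ± 160 and 1517 ± 118 in rho0, PKO-1 and PKO-6, whereas the 8-exon form averaged 1596 ± 133 in TM6 and 2215 ± 35.4, 1889 ± 58.1 and 1455 ± 58.0 (SD, n = 3). The fall in *Cdk2* was thus a fall of the 7-exon form, with the 8-exon form above its TM6 range in rho0 and PKO-1 and overlapping it in PKO-6. These shares are RSEM's division of reads between transcripts and were not tested.

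Of the 16 members with more than 1 annotated transcript, shares moved by over 10 percentage points without overlap with TM6 for 4 in rho0 (*Cdc45*, *Cdk2*, *E2f2* and *Orc6*), 4 in PKO-1 (*Cdc45*, *Cdk2*, *E2f2* and *E2f3*) and 2 in PKO-6 (*Cdk2* and *Orc6*). The same count over all genes with more than 1 transcript was not taken, so it is not known whether these numbers are unusual. A 6-exon transcript of *Orc6* of 1524 bases held 19.9% of its counts in TM6, 7.11% in rho0, 5.21% in PKO-6 and 17.7% in PKO-1, as means of 3 libraries.

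Of the E2F genes, *E2f1* fell in both PKO clones. *E2f1* gave 3647, 3329 and 3335 normalized counts in TM6, 3118, 2914 and 2865 in rho0, 2082, 2103 and 2148 in PKO-1, and 2431, 2326 and 2140 in PKO-6. All other libraries lay below TM6, and the clones below rho0, with log2 fold changes of -0.21 in rho0, -0.70 ± 0.059 in PKO-1 (edgeR adjusted p = 1.66e-07) and -0.58 ± 0.058 in PKO-6 (adjusted p = 7.67e-07). *E2f2* and *E2f3* were called in none, at -0.05, -0.03 and -0.35 for *E2f2* and -0.18, -0.39 and 0.08 for *E2f3* in rho0, PKO-1 and PKO-6. In TM6 these genes stood at 40.8 ± 2.36 TPM (*E2f1*), 18.5 ± 0.222 TPM (*E2f3*) and 3.86 ± 0.299 TPM (*E2f2*). The 13 S phase genes with an E2F motif had medians of -0.31, -0.32 and -0.36 in rho0, PKO-1 and PKO-6, and the 8 whose window lacked it -0.22, -0.05 and -0.29.

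*Ccne1*, the cyclin that starts S phase with CDK2, stood at -0.36 in rho0, 0.33 in PKO-1 and -0.17 in PKO-6, none called. *Ccne2* was called only in PKO-6 (-0.53 ± 0.103, edgeR adjusted p = 0.000408), a call lost without TM6 replicate 3 or PKO-6 replicate 2, and 53.9% of its exon bases lie across *Ints8* on the other strand. *Cdc25a*, the phosphatase that activates CDK2, gave 2803, 2777 and 3029 normalized counts in TM6, 1966, 1931 and 1907 in rho0, 1584, 1645 and 1627 in PKO-1, and 2070, 2124 and 2132 in PKO-6. The lines did not overlap and PKO-1 was lowest, at -0.83 ± 0.047 (edgeR adjusted p = 3.57e-09), against -0.57 ± 0.047 in rho0 (adjusted p = 1.1e-07) and -0.44 ± 0.047 in PKO-6. *Chek1*, the replication checkpoint kinase that restrains the CDC25 phosphatases, moved the other way in rho0: it gave 1553, 1765 and 1905 normalized counts in TM6, 2737, 2798 and 2885 in rho0, 1573, 1398 and 1358 in PKO-1, and 1989, 1854 and 2127 in PKO-6. Only rho0 was clear of TM6, at 0.69 ± 0.078 (edgeR adjusted p = 2.71e-06). *Cdc25a* and *Chek1* both lie on chromosome 9, whose 776 tested genes had a median of -0.39 in PKO-1, 0.04 in rho0 and 0.01 in PKO-6. With chromosome medians removed *Cdc25a* was at -0.43 in PKO-1 and no longer called, and rho0 was then the lowest at -0.57.

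**Figure D4:**
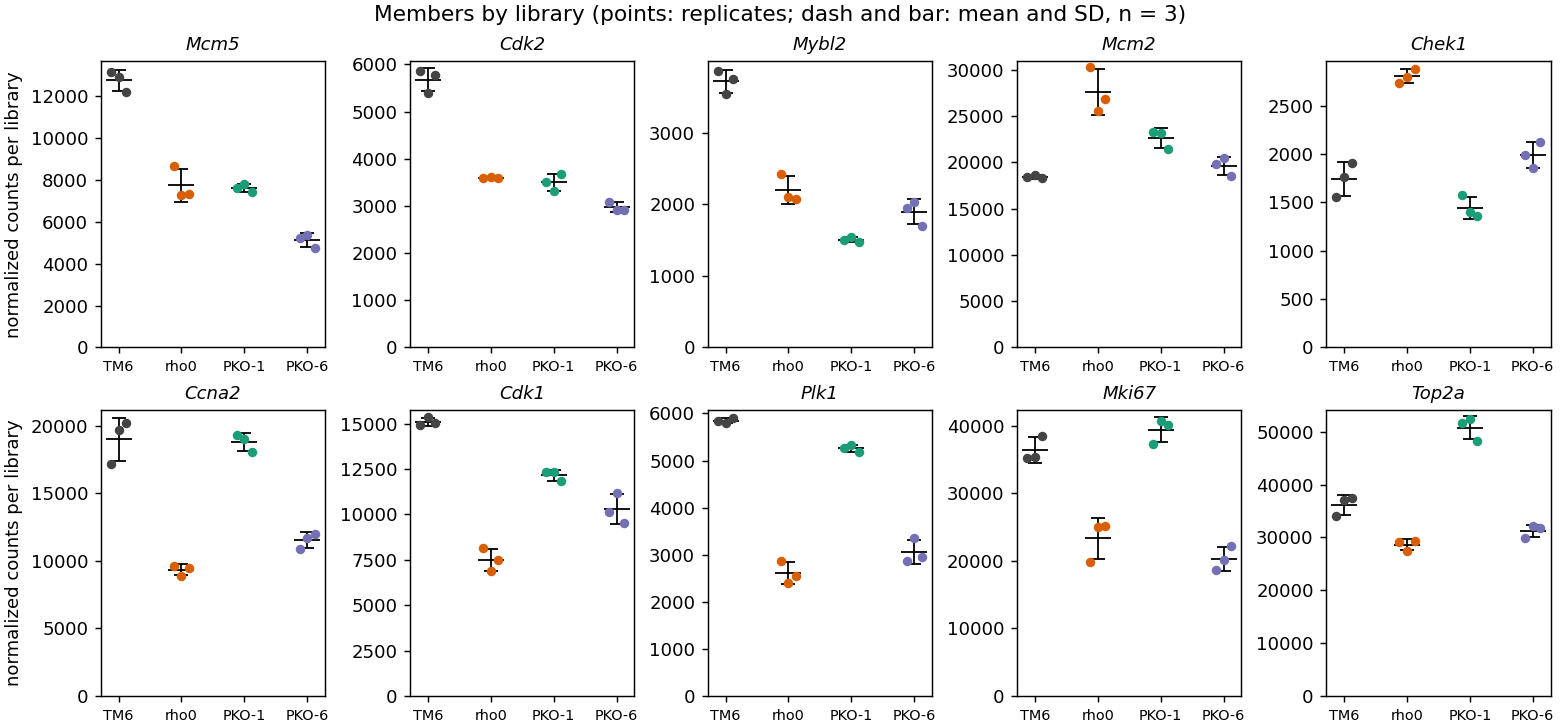
Normalized counts of 10 members in every library (points) with the mean and SD of 3 replicates (dash and bar) for TM6, rho0, PKO-1 and PKO-6; each panel starts at 0. *Mcm5*, *Cdk2* and *Mybl2* lie below TM6 in all 3 other lines, *Mcm2* and *Chek1* are highest in rho0, and *Ccna2*, *Plk1*, *Mki67* and *Top2a* in PKO-1 lie near or above TM6 while rho0 and PKO-6 lie below it.

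Of the 10 genes of mitotic entry, 6 fell in rho0, 5 in PKO-6 and 2 in PKO-1. Over all tested genes 21.4%, 19.4% and 17.9% were called lower in these lines, so the PKO-1 count was near that share. *Plk1*, a kinase that promotes entry into mitosis and centrosome maturation, gave 5835, 5804 and 5903 normalized counts in TM6, 2873, 2407 and 2544 in rho0, 5269, 5329 and 5176 in PKO-1, and 2869, 3354 and 2959 in PKO-6. PKO-1 lay a little under TM6 and far above the other lines, with log2 fold changes of -1.16 ± 0.069 in rho0 (edgeR adjusted p = 3.91e-09), -0.15 ± 0.068 in PKO-1 (adjusted p = 0.0617) and -0.93 ± 0.068 in PKO-6 (adjusted p = 2.85e-08). *Cdk1*, the mitotic kinase itself, gave 14919, 15338 and 15034 in TM6, 8120, 6872 and 7476 in rho0, 12339, 12329 and 11813 in PKO-1, and 10154, 11148 and 9512 in PKO-6. Its lines were ordered TM6, PKO-1, PKO-6 and rho0 without overlap, with log2 fold changes of -0.31 in PKO-1, -0.56 ± 0.068 in PKO-6 (edgeR adjusted p = 5.52e-06) and -1.01 ± 0.068 in rho0 (adjusted p = 1.48e-08).

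The B-type cyclins, partners of CDK1, did not move alike. *Ccnb1* averaged 13038 ± 338 normalized counts in TM6, 8144 ± 766 in rho0, 11434 ± 345 in PKO-1 and 8295 ± 550 in PKO-6, and was called in rho0 (-0.68) and PKO-6 (-0.65) but not in PKO-1 (-0.19). *Ccnb2* gave 5498, 5601 and 5185 normalized counts in TM6, 4203, 3548 and 3743 in rho0, 3715, 3876 and 3801 in PKO-1, and 3099, 3522 and 3128 in PKO-6. All other lines lay below TM6 for *Ccnb2*, at -0.50 ± 0.067 in rho0 (edgeR adjusted p = 1.42e-05), -0.52 ± 0.067 in PKO-1 (adjusted p = 1.38e-05) and -0.74 ± 0.068 in PKO-6 (adjusted p = 2.87e-07). The first and the second of these sit at the threshold: the rho0 call is lost without TM6 replicate 2 or rho0 replicate 2, and the PKO-1 call without TM6 replicate 2 or PKO-1 replicate 1. *Ccnb2* also lies on chromosome 9, and with chromosome medians removed it was at -0.13 in PKO-1 (edgeR adjusted p = 0.11). Of the phosphatases that switch CDK1 on, *Cdc25b* stood at -0.38, 0.15 and -0.43 and *Cdc25c* at -0.16, 0.46 and -0.25 in rho0, PKO-1 and PKO-6, and *Wee1*, the kinase that opposes them, at -0.17, -0.13 and -0.35, none called. *Aurka*, the spindle pole kinase, was called in rho0 (-0.62) and not in PKO-1 (-0.13) or PKO-6 (-0.34, no overlap with TM6), and PKO-6 and rho0 did not differ past the threshold (0.28).

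*Mybl2* and *Foxm1*, the transcription factors of the late cell cycle genes, parted from each other. *Mybl2* gave 3864, 3546 and 3745 normalized counts in TM6, 2422, 2106 and 2069 in rho0, 1498, 1540 and 1475 in PKO-1, and 1950, 2033 and 1699 in PKO-6. It was lowest in PKO-1, the line with the fewest mitotic genes called lower, at -1.31 ± 0.075 (edgeR adjusted p = 3.52e-09), against -0.97 ± 0.073 in PKO-6 (adjusted p = 3.87e-08) and -0.76 ± 0.073 in rho0 (adjusted p = 5.54e-07). *Foxm1* was called in none, at -0.30 in rho0, 0.25 in PKO-1 and -0.20 in PKO-6 (2.06% of its exon bases are shared with *4933413G19Rik*). Neither a CHR element, nor CCAAT, nor an E2F motif was in the *Mybl2* window, and *Foxm1* had no window to search.

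Of the 8 genes of the spindle checkpoint and anaphase, 5 fell in rho0, where 21.4% of all genes were called lower, and the other 3, *Bub1*, *Bub1b* and *Mad2l1*, stood at -0.38, -0.47 and -0.33. *Espl1*, separase, which cuts the cohesin rings at anaphase, gave 9394, 8597 and 8568 normalized counts in TM6, 5110, 5077 and 5064 in rho0, 7527, 8160 and 8064 in PKO-1, and 5948, 6304 and 5443 in PKO-6. PKO-1 lay just under TM6, with log2 fold changes of -0.80 ± 0.061 in rho0 (edgeR adjusted p = 4.71e-08), -0.59 ± 0.060 in PKO-6 (adjusted p = 1e-06) and -0.16 in PKO-1. *Pttg1*, securin, the inhibitor of separase, was called in rho0 alone (-0.68, against 0.09 in PKO-1 and -0.33 in PKO-6), as was *Cdc20*, the activator of the anaphase-promoting complex (-0.60, 0.10 and -0.49), which shares 2.91% of its exon bases with *Elovl1* on the other strand. *Aurkb*, the kinase that corrects spindle attachments, stood at -0.55, 0.15 and -0.60 in rho0, PKO-1 and PKO-6, and *Ttk*, the kinase at the head of the checkpoint, at -0.74, -0.44 and -0.57; both were called in rho0 and PKO-6. In PKO-6 3 of the 8 were called, and in PKO-1 none, with 6 of 8 positive. Over all genes 19.4% were called lower in PKO-6 and 17.9% in PKO-1, where 7024 of 14026 were positive.

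The last pair act on mitotic chromosomes. *Mki67*, the proliferation marker that coats them, gave 35210, 35367 and 38517 normalized counts in TM6, 19788, 24945 and 25176 in rho0, 37336, 40724 and 40135 in PKO-1, and 18638, 20093 and 22145 in PKO-6. PKO-1 overlapped TM6, and rho0 and PKO-6 overlapped each other well under it, with log2 fold changes of -0.64 ± 0.092 in rho0 (edgeR adjusted p = 2.61e-05), 0.12 ± 0.091 in PKO-1 (adjusted p = 0.284) and -0.84 ± 0.092 in PKO-6 (adjusted p = 1.84e-06). *Top2a*, the topoisomerase that untangles sister chromatids, gave 34041, 37130 and 37431 normalized counts in TM6, 29101, 27426 and 29271 in rho0, 51620, 52342 and 48335 in PKO-1, and 29958, 32153 and 31723 in PKO-6. PKO-1 was clear of TM6 and above it, the highest log2 fold change of a mitotic gene in that line, but at 0.49 ± 0.060 it stayed under the fold change threshold (edgeR adjusted p = 7.97e-06), and rho0 and PKO-6 stood at -0.34 and -0.21.

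The lines were also compared with each other. PKO-1 against PKO-6, the test of whether the clones differed, called 9 mitotic and 6 S phase genes higher in PKO-1 and none lower, where over all genes 11.5% were called higher and 17.6% lower. The mitotic genes were *Mki67*, *Plk1*, *Aurkb*, *Cdc25c*, *Top2a*, *Cdc20*, *Cdc25b*, *Bub1* and *Mad2l1*, and the S phase genes *Gins2*, *Ccna2*, *Orc6*, *Mcm4*, *Mcm5* and *Pola1*. The largest were *Mki67* at 0.96 ± 0.092 (edgeR adjusted p = 8.46e-07), *Plk1* at 0.78 ± 0.068 (adjusted p = 3.34e-07) and *Aurkb* at 0.75 ± 0.067 (adjusted p = 4.48e-07). Medians over the groups were 0.46 for mitotic and 0.28 for S phase genes, against -0.01 over all genes. Without PKO-6 replicate 3 the calls were 9 mitotic and 7 S phase genes.

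PKO-1 against rho0 called 13 mitotic genes higher and only *Mybl2* lower (-0.55), with a median of 0.62, where 15.1% of all genes were called higher and 17.6% lower. Of the S phase genes *Ccna2* (1.01) and *Ccne1* (0.68) were higher and *Chek1* (-0.96) lower. Without rho0 replicate 1 the mitotic calls were 15 higher and 0 lower, *Mybl2* no longer among them. PKO-6 against rho0 called 2 members, *Mcm5* (-0.60 ± 0.071, edgeR adjusted p = 1.02e-05) and *Pola1* (-0.51 ± 0.064, adjusted p = 1.54e-05), both lower in PKO-6, and no mitotic gene, where 8.16% of all genes were called lower and 13.3% higher. At an adjusted p below 0.01 with no fold change threshold, 22 of the 47 differed between PKO-6 and rho0, beside 5704 of all 14026 tested genes. These lines thus also differed at smaller sizes, with the members near the share of all genes. The calls were 5 without PKO-6 replicate 3 and 4 without TM6 replicate 1, rho0 replicate 2 or PKO-6 replicate 1, and *Pola1* is lost without PKO-6 replicate 2. With chromosome medians removed neither gene was called (-0.36 and -0.40).

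Chromosome by chromosome, the medians of all tested genes were not level, and several members lay where they were low. Chromosome 8, with *Mcm5*, *Cdt1*, *Gins2* and *Orc6*, had a median log2 fold change of -0.18 in rho0, -0.11 in PKO-1 and -0.43 in PKO-6 over 739 genes. With chromosome medians removed, *Mcm5* kept its call at -0.53, -0.64 and -0.88 in rho0, PKO-1 and PKO-6, *Gins2* stood at -0.64, -0.38 and -0.79 and *Orc6* at -0.38, -0.21 and -0.56, while *Cdt1* lost its call as given above. The counts of called genes were then 4 S phase and 12 mitotic genes lower in rho0, 3 and 1 in PKO-1, and 8 and 11 in PKO-6, where 18.8%, 15.1% and 17.7% of all genes were called lower in rho0, PKO-1 and PKO-6. The S phase counts in rho0 and PKO-1 were then under the share of all genes. Calls lost this way also included *Rfc3* (-0.32) and *Espl1* (-0.39) in rho0, and *Pcna* (-0.41) and *E2f1* (-0.48) in PKO-6, and calls gained were *Cdc25c* in rho0 (-0.56) and *Mcm3* (-0.56), *Cdc25c* (-0.59) and *Cdc20* (-0.61) in PKO-6. Between the clones 10 mitotic and 2 S phase genes were then higher in PKO-1 and 0 lower, where 10.1% of all genes were called higher, so that the S phase count was under that share, and *Mcm4*, *Mcm5*, *Gins2*, *Orc6*, *Pola1*, *Bub1* and *Mad2l1* were no longer called. Copy number of the chromosomes was not measured here.

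Other genes of the same processes were counted from a list of 38 further replication genes and 44 further mitosis genes, all tested. Of the mitosis genes 16 fell and 0 rose in rho0 (median -0.42), 8 fell and 1 rose in PKO-6 (median -0.22), and 2 fell and 7 rose in PKO-1 (median 0.21). Of the replication genes 9 fell and 3 rose in rho0 (median -0.16), 9 fell and 4 rose in PKO-6 (median -0.13), and 4 fell and 3 rose in PKO-1 (median -0.02). Over all genes 21.4%, 19.4% and 17.9% were called lower in rho0, PKO-6 and PKO-1, so the replication genes that fell were near that share in rho0 and PKO-6 and under it in PKO-1. The mitosis genes that fell were near it in PKO-6 and under it in PKO-1. Those that rose in PKO-1 were near the 16.4% of all genes called higher there. PKO-1 against PKO-6 called 17 of the mitosis genes higher and 0 lower, where 11.5% of all genes were called higher and 17.6% lower. PKO-1 against rho0 called 28 of them higher and 1 lower, where 15.1% of all genes were called higher and 17.6% lower. The lowest in rho0 and in PKO-6 were *Kif4*, a chromosome-bound kinesin (-1.44 and -1.39), and *Cenpi*, a centromere protein (-1.19 and -1.22); both lie on chromosome X, whose low medians are given above, and they stood at -0.69 and -0.78 in PKO-1. In PKO-1 the lowest was *Dscc1*, a subunit of an alternative clamp loader (-0.95; -1.07 in rho0 and -1.17 in PKO-6), and the highest were *Orc2* (0.76), an origin recognition subunit, and *Cenpf* (0.73), a kinetochore protein. *Recql4*, a replication helicase, was the highest in rho0 (0.93) and PKO-6 (0.68) and stood at -0.41 in PKO-1.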

How the data were processed

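RNA from 4 MEF lines (TM6, rho0, PKO-1 and PKO-6, 3 cultures each, 12 libraries) was depleted of ribosomal RNA and sequenced by the authors. The deposited gene table holds expected counts, not normalized, made by the authors with RSEM 1.2.25 and bowtie2 on mm10 (GRCm38) with RefSeq transcripts, per the submitters' processing notes and the study's methods. The per-library files hold deposited TPM and expected counts per transcript, from which gene levels in TPM and transcript shares were taken. Of the gene values 12.5% had decimals, and counts were rounded. *Rn45s* held 12.2% to 19.6% of a library. RNA encoded by mtDNA was not analysed here.

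The 14026 genes that passed filterByExpr (minimum count 10) were fitted together with edgeR 4.0.16 in R 4.3.3, with TMM scaling and each line as a group, and Benjamini-Hochberg adjustment ran over all of them. Standard errors were taken from the F statistic, as the absolute log2 fold change over its square root. The fit was tested on simulated data. The members, their split and the other gene lists were chosen with earlier results of these data known, so no list was tested as a set. Named in full are the 3 called members of each group with the largest absolute log2 fold change in each comparison with TM6 and in the clone comparison, the families and usual markers, and at most 2 other genes of either direction per comparison. *Cdk2*, *Chek1*, *Orc6* and the transcript shares were added after their values were seen. Alternatives were DESeq2's size factors, the DESeq2 1.42.0 Wald test, no filter, only the compared lines fitted, a replicate block, adjusted p alone, chromosome medians removed, pooled clones, *Ccna2*, *Foxm1* and *Mybl2* left out of the lists, and each library left out.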

Additional observations from a re-analysis of the deposited data

Results flagged for a closer look

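The PKO clones were made the same way from TM6, and their changes against TM6 differed for 15 members by the direct test of PKO-1 against PKO-6 (edgeR's quasi-likelihood test with Benjamini-Hochberg adjustment, adjusted p below 0.01, absolute difference above 0.5). Of the 47 members 32 were not called, and of all 14026 tested genes 9939 were not. The number of members called was thus near the share of all genes. All 15 differences, in log2 units as PKO-1 minus PKO-6, were positive, whereas over all genes 11.5% were called higher and 17.6% lower. Among mitotic genes they were 0.96 for *Mki67*, 0.78 for *Plk1*, 0.75 for *Aurkb*, 0.71 for *Cdc25c*, 0.70 for *Top2a*, 0.59 for *Cdc20*, 0.58 for *Cdc25b*, 0.52 for *Bub1* and 0.50 for *Mad2l1*. Among S phase genes they were 0.73 for *Gins2*, 0.70 for *Ccna2*, 0.67 for *Orc6*, 0.60 for *Mcm4*, 0.57 for *Mcm5* and 0.51 for *Pola1*. *Pola1* loses its call without PKO-1 replicate 1 or PKO-6 replicate 2, *Bub1* without PKO-6 replicate 1 or 2, and *Mad2l1* without PKO-1 replicate 1 or 2 or PKO-6 replicate 2. *Pola1* and *Mad2l1* also lose it with DESeq2's size factors, with its Wald test and with no filter on low counts, and *Mad2l1* with only the compared lines fitted. With chromosome medians removed *Mcm4*, *Mcm5*, *Gins2*, *Orc6*, *Pola1*, *Bub1* and *Mad2l1* are not called, which are 5 of the 6 S phase genes.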

How the results depend on the processing

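Called members numbered 22 in rho0, 8 in PKO-1 and 20 in PKO-6 against TM6, 17 for PKO-1 against rho0, 2 for PKO-6 against rho0 and 15 for PKO-1 against PKO-6. Members not called were 25, 39, 27, 30, 45 and 32 of 47 in that order. Of all 14026 tested genes, 8124, 9216, 8227, 9436, 11012 and 9939 were not called. The called members were thus near the share of all genes, except in 2 comparisons. In PKO-1 against TM6 and PKO-6 against rho0 they were under it. With adjusted p alone the called members numbered 38, 27, 40, 32, 22 and 35 in the same order. Of all 14026 tested genes, 8707, 7611, 8549, 7561, 5704 and 7014 then passed. The members of PKO-1 against TM6 and of PKO-6 against rho0 were near that share. With both thresholds, leaving out 1 library gave 21 to 23, 7 to 10, 19 to 22, 17 to 21, 2 to 5 and 14 to 16 members. DESeq2's size factors and its Wald test each gave 4 for PKO-6 against rho0, and both clones pooled against TM6 gave 10, against 20 for PKO-6 alone. With chromosome medians removed the counts were 4 for PKO-1 against TM6 and 0 for PKO-6 against rho0, the S phase median in PKO-1 was -0.092, the mitotic minus S phase median was 0.13 in PKO-1 (0.34 otherwise) and -0.14 in PKO-6 (-0.04 otherwise), and *Pola1* turned to 0.11 in rho0 and 0.055 in PKO-1; in these the cause was not tested. Without 1 library at a time the mitotic median in PKO-6 ran from -0.55 to -0.40 and the mitotic minus S phase median in PKO-1 from 0.27 to 0.42, while that of PKO-6 ran from -0.080 to 0.010 and so changed sign. Other alternatives kept the direction of every median.

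Whether replicate numbers pair the libraries was not settled. Of 18 pairs with the same number, 10 had correlated deviations over 0.1 (range -0.39 to 0.25), while pairs with different numbers ranged from -0.42 to 0.49. Of 12 libraries, 5 correlated best with their own number. With the replicate number as a block the counts were again 22, 8, 20, 17, 2 and 15. With 3 cultures per line, smaller changes than these could go uncalled; each library held at least 47164860 counts.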
